A study of Mus musculus with 12 samples.

Results

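The genes described here are 34 genes that mark macrophages and dendritic cells or take part in their signalling, measured by RNAseq in kidney cortex of TRACK mice and their wild-type littermates. They were picked by symbol from the 37681 genes of the deposited read count table, all 34 were found there, and 33 had enough reads to be tested. Marco, a scavenger receptor, had between 0 and 5 reads per mouse and was not tested. The comparison asks how the mRNA levels of these myeloid genes differ between TRACK and wild-type kidneys, and whether each gene differs by as much as the general leukocyte signal of the same tissue. TRACK (TG+) mice carry the GGT-HIF1αM3 (γ-HIF1αM3) transgene, a mutated and constitutively active HIF1α under a γ-glutamyltransferase promoter that drives it in the proximal tubule, and they are used as a model of clear cell renal cell carcinoma. The 3 TG+ and 3 wild-type littermate (TG−) mice were C57BL/6 males aged 18 months, both groups were untreated, and a thin outer slice of the cortex of each of the 2 kidneys gave 1 library. The 2 kidneys of a mouse were summed, so that n = 3 mice per group.

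Macrophages depend on the growth factor CSF1 and its receptor CSF1R, and on the transcription factor PU.1, which Spi1 encodes. They sense microbes and dying cells through Fc receptors, C-type lectins, scavenger receptors and Toll-like receptors, and many of these receptors signal through adaptors with ITAM motifs, such as those encoded by Fcer1g and Tyrobp. The kidney holds a dense network of such mononuclear phagocytes between its tubules, and the same tissue holds conventional dendritic cells, which share several of these genes.

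Levels are given as CPM, counts per 1000000 reads after scaling of the library totals by the TMM method, and where a gene is described by 6 values they stand for TG+ mice 43-29, 43-49 and 43-75 and then for TG− mice 43-26, 43-50 and 43-76. Libraries held 21888584 to 33704850 reads and mice 48052131 to 60506785 reads. No row for the transgene was used here, so the targeted gene did not serve to check the labels. Differences are log2 fold changes of TG+ over TG− with their standard error (SE) and an adjusted p, which is edgeR's quasi-likelihood p after Benjamini-Hochberg adjustment over all 19399 genes tested. The 12 kidney proximal tubule markers that served to check the tissue were abundant, with summed levels of 29377 to 32870 CPM in TG+ and 40548 to 42751 CPM in TG− mice. Both groups therefore showed the labelled tissue, at a lower summed level in each TG+ mouse than in each TG− mouse.

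Most of the myeloid genes had higher mRNA levels in TRACK kidneys. At an adjusted p below 0.05, 23 of the 33 tested members were higher in TG+ and 0 were lower, beside 15.4% of all tested genes that were higher and 10.9% that were lower. Higher genes made up 58.6% of all calls, and 82.6% when libraries were scaled by their totals alone, where 25 members were higher. The count of 0 lower members comes with 1 member lower at an unadjusted p below 0.05, and DESeq2 called that 1 member, the inhibitory Fc receptor gene Fcgr2b, lower. The median log2 fold change of the members was 0.77, with quartiles at 0.59 and 0.86, and that of all tested genes was 0.01. At the threshold used in the study (adjusted p below 0.01 and a fold change above 2), only Itgax passed, beside 3.77% of all tested genes that were higher by that rule. Without TG+ mouse 43-29, Cd163 and Mrc1 passed with it, which made 3, and without TG− mouse 43-26, Cd68 passed with it, which made 2.

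The summed level of the 34 genes was 525.1, 522.3 and 534.2 CPM in the 3 TG+ mice. It was 399.6, 347.6 and 369.5 CPM in the 3 TG− mice. The groups did not overlap, and the ratio of their means was 1.42. In bulk tissue, a larger number of cells and more RNA per cell cannot be told apart. In 23 of the 33 members every TG+ mouse lay above every TG− mouse, beside 23.4% of all tested genes, and in 17 members all 6 TG+ libraries lay above all 6 TG− libraries, beside 13.4% of all tested genes. An exact permutation test of 3 against 3 mice cannot give a 2-sided p below 0.1 for any of these genes.

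Among the TG− mice, 43-26 had the highest level of 22 members and 43-50 the lowest level of 24. Each mouse left out in turn, edgeR's test called 15 to 24 members higher, with 15 called without TG+ mouse 43-75. The 14 members called in each of these 6 fits were Axl, Cd68, Csf1, Csf1r, Ctss, Irf8, Itgam, Itgax, Laptm5, Lcp1, Lcp2, Mrc1, Spi1 and Tlr4. The other 9, among them Cd14, Cd163, Fcgr3 and Tyrobp, missed the threshold in 1 to 5 of the 6 fits. The 2 kidneys of a mouse differed by a median of 0.20 on the log2 scale per member.

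**Figure D1:**
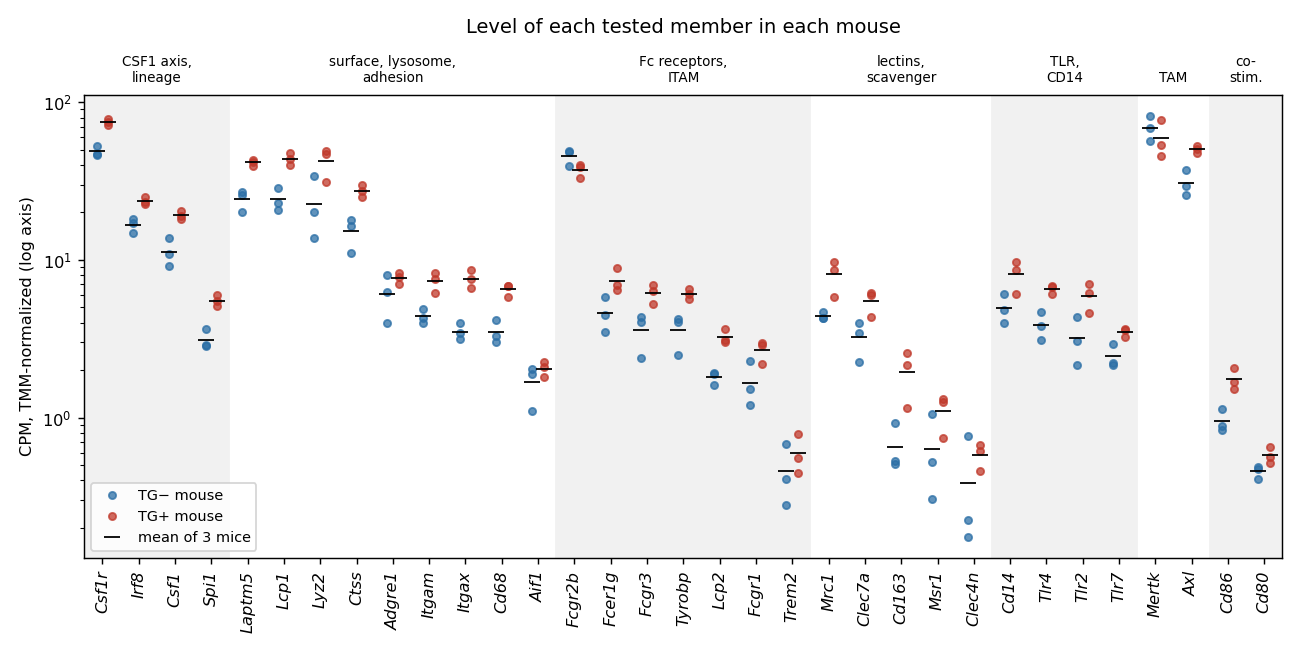
CPM of the 33 tested members on a log axis, with 1 point per mouse (blue, 3 TG− mice; red, 3 TG+ mice) and a bar at the mean of each group, arranged by role. The red points lie above the blue points in 23 members, and Fcgr2b and Mertk are the members with a lower mean in TG+.

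The CSF1 axis and the lineage transcription factors were higher in TG+ in all 4 genes measured. Csf1r, the receptor that macrophages need for survival, was at 72.3, 75.5 and 78.6 CPM in TG+ and at 46.4, 52.9 and 46.8 CPM in TG−, a log2 difference of 0.63 (SE 0.07, adjusted p = 0.000661). Its ligand gene Csf1 was at 19.0, 18.2 and 20.4 CPM in TG+ and at 13.8, 9.21 and 10.9 CPM in TG−, a log2 difference of 0.77 (SE 0.14, adjusted p = 0.00634). Neither gene's groups overlapped, and receptor and ligand differed by 1.55-fold and 1.70-fold. The counting was not stated to use strand, and Csf1r overlaps Hmgxb3 on the opposite strand, with 19492 reads for Csf1r and 13154 for Hmgxb3 over all mice, so that reads of the pair may be mixed.

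Spi1, the gene of PU.1, was at 5.98, 5.13 and 5.48 CPM in TG+ and at 3.65, 2.89 and 2.84 CPM in TG− (log2 difference 0.82, SE 0.13, adjusted p = 0.00405). Irf8, a transcription factor of monocytes, dendritic cells and B cells, was at 22.6, 25.2 and 23.2 CPM in TG+ and at 17.2, 18.2 and 14.8 CPM in TG− (log2 difference 0.50, SE 0.09, adjusted p = 0.00599). The 1.41-fold difference of Irf8 was among the smaller ones of the called members, yet its mice did not overlap. Il34, which encodes the other ligand of CSF1R and was named after its values were seen, was at 30.9 to 42.7 CPM in TG+ and 30.6 to 36.2 CPM in TG−, and it was not called (log2 difference 0.08, adjusted p = 0.679).

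Of the 9 surface, lysosome and adhesion markers, 6 were higher in TG+. Itgax, which encodes the integrin CD11c of dendritic cells and of many kidney macrophages, was at 8.63, 7.62 and 6.61 CPM in TG+ and at 3.96, 3.17 and 3.42 CPM in TG−. It differed by 2.17-fold (log2 difference 1.12, SE 0.14, adjusted p = 0.00114), the largest difference of this set. Itgax (ENSMUSG00000030789) lies at chr7:128129547-128150657 on the plus strand of GRCm38. Itgam, the gene of the integrin CD11b, was at 6.17 to 8.26 CPM in TG+ and 3.97 to 4.91 CPM in TG− (log2 difference 0.74, SE 0.14, adjusted p = 0.00706).

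Cd68, a lysosomal membrane protein of macrophages, was at 6.87, 5.82 and 6.85 CPM in TG+ and at 4.19, 3.03 and 3.32 CPM in TG− (log2 difference 0.89, SE 0.14, adjusted p = 0.00406). Ctss, the gene of the lysosomal protease cathepsin S, was at 24.9 to 29.8 CPM in TG+ and 11.1 to 18.1 CPM in TG− (log2 difference 0.85, SE 0.17, adjusted p = 0.00893). Laptm5, a lysosomal protein of blood cells, and Lcp1, which encodes the actin-bundling L-plastin, were higher by 0.77 and 0.86 on the log2 scale, with adjusted p = 0.002 and 0.00221. None of these 4 genes had overlapping mice. The opposite-strand genes that overlap Lcp1 had at most 166 reads over all mice, beside 10639 for Lcp1.

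Lyz2, the lysozyme gene of macrophages and neutrophils and the member with the highest level per length, did not pass. It was at 49.2, 31.3 and 47.2 CPM in TG+ and at 34.2, 13.8 and 20.2 CPM in TG− (log2 difference 0.91, SE 0.31, adjusted p = 0.0677). TG+ mouse 43-49 lay below TG− mouse 43-26, and without TG− mouse 43-26 the log2 difference was 1.32 with an adjusted p of 0.01. With a replicate block for presumed littermate pairs, which no label states, Lyz2 was called (log2 difference 0.97, adjusted p = 0.00419). It was also called without the filter on low counts (adjusted p = 0.0467), with library size alone (adjusted p = 0.0472) and with each kidney as its own library (adjusted p = 0.00709). The last of these fits counts the 2 kidneys of a mouse as independent, which they are not. DESeq2 did not call Lyz2 (adjusted p = 0.118). Its near-identical copy Lyz1, which may share reads with it, was at 0.061 to 0.511 CPM in all mice. Adgre1, the gene of the macrophage surface protein F4/80, was at 7.08, 8.29 and 7.77 CPM in TG+ and at 7.97, 3.96 and 6.22 CPM in TG−, with overlapping groups (log2 difference 0.35, SE 0.22, adjusted p = 0.286). Aif1, the gene of the calcium-binding protein IBA1, gave a log2 difference of 0.29 (SE 0.24, adjusted p = 0.401). Lyz2, Adgre1 and Aif1 had their highest TG− level in mouse 43-26 and their lowest in mouse 43-50.

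Of 7 genes of Fc receptors and ITAM signalling, 4 were higher in TG+. The activating receptor gene Fcgr3 was at 6.97, 5.25 and 6.37 CPM in TG+ and at 4.05, 2.40 and 4.34 CPM in TG− (log2 difference 0.79, SE 0.22, adjusted p = 0.0343). Fcer1g, which encodes the signalling chain of the activating Fc receptors, differed by 0.69 (SE 0.20, adjusted p = 0.0385), and Tyrobp, the adaptor DAP12, by 0.77 (SE 0.19, adjusted p = 0.0229) on the log2 scale. Lcp2, the adaptor SLP-76 downstream of ITAM receptors, was higher by 0.86 (SE 0.14, adjusted p = 0.00433). These 4 genes were higher in each TG+ mouse than in each TG− mouse. Fcgr1, a high-affinity activating receptor, was at 2.19 to 2.99 CPM in TG+ and 1.21 to 2.27 CPM in TG−, and it was not called (log2 difference 0.69, adjusted p = 0.0735), whereas DESeq2 gave an adjusted p of 0.0484. Trem2, a lipid receptor of macrophages that signals through DAP12, had only 16 to 45 reads per mouse and was not called (log2 difference 0.40, SE 0.36, adjusted p = 0.457).

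Fcgr2b, the inhibitory Fc receptor, was the member with the lowest log2 fold change. It was at 38.6, 33.2 and 40.2 CPM in TG+ and at 48.2, 39.5 and 49.2 CPM in TG−, a log2 difference of -0.29 (SE 0.10, adjusted p = 0.0767). The groups overlapped at TG+ mouse 43-75 and TG− mouse 43-50, and without TG− mouse 43-50 the log2 difference was -0.39 with an adjusted p of 0.0294. With the block for presumed littermate pairs, Fcgr2b was called lower (log2 difference -0.29, adjusted p = 0.00819). Fcgr2b (ENSMUSG00000026656) lies at chr1:170958617-170976547 on the minus strand of GRCm38, and besides myeloid cells it is known from B cells and some endothelial cells. The Fc receptor genes are similar in sequence, and reads may be shared between Fcgr2b, Fcgr3 and their copy Fcgr4, which was at 3.09 to 3.98 CPM in TG+ and 1.59 to 2.80 CPM in TG− (log2 difference 0.67, adjusted p = 0.0547).

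Of the C-type lectins and scavenger receptors, 3 of 5 tested genes were higher in TG+. Cd163, a receptor for haemoglobin–haptoglobin complexes on tissue macrophages, showed the largest fold change of the members. It was at 1.15, 2.56 and 2.17 CPM in TG+ and at 0.507, 0.928 and 0.532 CPM in TG−, a 2.97-fold difference (log2 difference 1.57, SE 0.35, adjusted p = 0.0151). The groups did not overlap, but the gene had only 26 to 145 reads per mouse, and without TG− mouse 43-76 its log2 difference of 1.44 had an adjusted p of 0.0604. Cd163 (ENSMUSG00000008845) lies at chr6:124304656-124330527 on the plus strand of GRCm38.

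Mrc1, the mannose receptor CD206, was at 5.86, 9.77 and 8.68 CPM in TG+ and at 4.31, 4.27 and 4.67 CPM in TG− (log2 difference 0.88, SE 0.18, adjusted p = 0.0106). Clec7a, the β-glucan receptor dectin-1, was at 4.37 to 6.15 CPM in TG+ and 2.26 to 3.97 CPM in TG− (log2 difference 0.77, SE 0.22, adjusted p = 0.0377). Both were separated between the groups. The scavenger receptor gene Msr1, with 15 to 65 reads per mouse, and Clec4n, which encodes the lectin dectin-2 and had 10 to 39 reads, were not called, at log2 differences of 0.80 and 0.59 and standard errors of 0.42 and 0.51. Without TG− mouse 43-26 both were called, Msr1 at 1.38 (adjusted p = 0.0374) and Clec4n at 1.53 (adjusted p = 0.0185).

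All 4 genes of Toll-like receptors and their coreceptor were higher in TG+. Tlr4, the receptor of lipopolysaccharide, was at 6.09, 6.84 and 6.71 CPM in TG+ and at 4.66, 3.10 and 3.83 CPM in TG− (log2 difference 0.76, SE 0.15, adjusted p = 0.00934). Cd14, which hands lipopolysaccharide to TLR4, was at 8.67, 6.12 and 9.76 CPM in TG+ and at 6.12, 4.80 and 3.99 CPM in TG− (log2 difference 0.72, SE 0.21, adjusted p = 0.0378), and its groups met at 6.12 CPM. Tlr2, the receptor of bacterial lipopeptides, and Tlr7, the endosomal receptor of single-stranded RNA, were higher by 0.89 (adjusted p = 0.0379) and 0.51 (adjusted p = 0.042) on the log2 scale. Of these 4 genes, Tlr4 alone was called in each fit that left out 1 mouse.

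The TAM receptors are tyrosine kinases that help macrophages take up dying cells and that dampen inflammation, and of the 2 members Axl was higher in TG+. Axl was at 47.8, 50.6 and 53.0 CPM in TG+ and at 37.4, 25.9 and 29.7 CPM in TG− (log2 difference 0.70, SE 0.12, adjusted p = 0.00593). Mertk was at 45.9, 77.7 and 53.4 CPM in TG+ and at 56.8, 82.3 and 68.4 CPM in TG− (log2 difference -0.23, SE 0.20, adjusted p = 0.448). The Axl groups did not overlap, whereas the Mertk groups overlapped widely, with the highest level of each group in mice 43-49 and 43-50. These 2 mice are presumed littermates, which no label states. With a replicate block for the presumed pairs, Mertk was called lower in TG+ (log2 difference -0.25, adjusted p = 0.0366). The kidneys of a mouse agreed closely for Mertk, with a largest log2 ratio of 0.098. Mertk (ENSMUSG00000014361), which is known from epithelial cells as well as macrophages, lies at chr2:128698956-128802894 on the plus strand of GRCm38. Per kb of exon it was second among the members in TG−, at 15.95 CPM per kb beside 17.3 for Lyz2, 11.2 for Ctss and 8.44 for Csf1r.

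The costimulators CD80 and CD86 engage CD28 on T cells. Cd86 was at 1.52, 1.69 and 2.05 CPM in TG+ and at 1.13, 0.84 and 0.88 CPM in TG− (log2 difference 0.88, SE 0.19, adjusted p = 0.0135). Cd80 was at 0.518 to 0.652 CPM in TG+ and 0.409 to 0.487 CPM in TG−, from 20 to 37 reads per mouse. Its groups did not overlap, and it was not called (log2 difference 0.34, SE 0.21, adjusted p = 0.26). Cd28 itself was higher by 1.59 on the log2 scale (SE 0.22, adjusted p = 0.00199), from 0.553 to 0.753 CPM in TG− to 1.65 to 2.33 CPM in TG+.

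**Figure D2:**
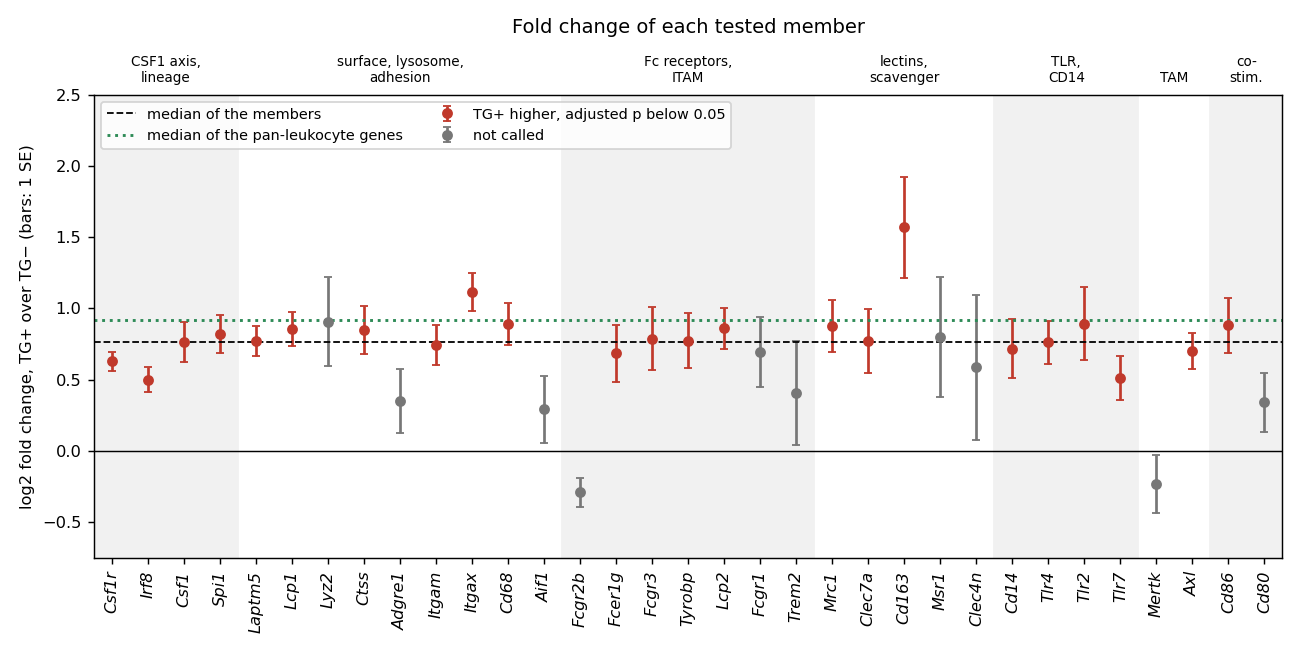
Log2 fold change of TG+ over TG− for each tested member, arranged by role, with bars of 1 SE (n = 3 mice per group). Red points are the 23 members called higher at an adjusted p below 0.05, the dashed line marks the median of the members (0.77) and the dotted line that of 16 pan-leukocyte genes (0.92), and only Fcgr2b and Mertk lie below 0.

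Since most but not all tested members were higher in TG+, the promoters of the whole set were searched for the letters that PU.1 is known to favour. Promoter windows from 250 bases before to 50 bases after the start site (RefSeq, GRCm38.p6) were given for 24 of the 34 members. The 8-letter motif GAGGAAGT, on either strand, was in the window of 1 of them, Ctss, beside 3.69% of 27025 genes. Its first 6 letters GAGGAA were in 13 of 24 windows (54.2%), beside 31.3% of all genes, and every match of the longer motif is also one of the shorter. Of these 13 members, 9 were higher in TG+, 3 (Aif1, Fcgr1 and Trem2) were not called and Marco was not tested, while 16 of the 24 members with a window were higher. The letters ACGTG and GCGTG, the cores of hypoxia response elements, were in 3 and 6 of the 24 windows (12.5% and 25%) beside 21.8% and 35.2% of all genes. The choice of the 6-letter form was made after the 8-letter form had been counted, and a match is a description of letters, not of binding. The stretches of 30 bases below are shown because they hold GAGGAA, in capitals, ahead of a RefSeq start site of 7 members that were higher in TG+. By GENCODE positions, the Laptm5 stretch lies within the gene and the Mrc1 stretch reaches past the gene's start. The letters also stood ahead of the start site in Fcgr1, Trem2 and Marco, which are not printed. Each is printed on the strand that reads GAGGAA, 5′ to 3′.
Itgam, chr7:128062544-128062573, plus strand: tgttttctcccgGAGGAAggctacagaggg
Cd68, chr11:69666378-69666407, minus strand: tttcttaccaatGAGGAAagggcttcccat
Ctss, chr3:95526610-95526639, plus strand: gacacagggttgGAGGAAaactttgtcctg
Laptm5, chr4:130913266-130913295, minus strand: cagaacaaaaaaGAGGAAgccacaggctgc
Mrc1, chr2:14229367-14229396, minus strand: aaaaggaggacaGAGGAAgctgtccctttt
Clec7a, chr6:129472858-129472887, minus strand: aaacaggatctaGAGGAAaaaagggaaatt
Axl, chr7:25788846-25788875, plus strand: gaggctggggagGAGGAAggagaccttggt
The motif began on the gene's own strand in Itgam, Cd68, Ctss and Clec7a and on the other strand in Laptm5, Mrc1 and Axl.

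To set each member against the general leukocyte signal, a second fit replaced the library size by the summed reads of 16 pan-leukocyte genes, such as Ptprc, the gene of the leukocyte antigen CD45. The sum was at 197.9, 191.2 and 178.1 CPM in TG+ and at 127.4, 107.3 and 124.2 CPM in TG−, a ratio of 1.58. Macrophages express many of these genes too, so the reference is not independent of the members. On this scale the median difference of the members was 0.12, beside -0.65 for all tested genes. It ran from 0.024 to 0.185 when single mice were left out. The 9 endothelial and 8 stromal genes had medians of 0.05 and 0.01 on this scale, with 0 called higher or lower. A position near the leukocyte level was thus not particular to the members. At an adjusted p below 0.05, 2 members were higher than the leukocyte level and 2 were lower, beside 4.09% and 71.2% of all tested genes. The other 29 tested members differed from the leukocyte level by less than this test could call, which does not show that they rose alike.

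The members above the leukocyte level were Itgax, with a log2 difference of 0.45 (SE 0.15, adjusted p = 0.0121), and Cd163, with 0.89 (SE 0.34, adjusted p = 0.0258). Itgax was not called on this scale without TG+ mouse 43-29 or TG− mouse 43-76. Cd163 was not called without TG+ mouse 43-49, TG+ mouse 43-75 or TG− mouse 43-76, and without TG− mouse 43-76 the count of higher members was 0, with 1 at an unadjusted p below 0.05. The members below it were Fcgr2b, at -0.94 (SE 0.12, adjusted p = 1.86e-05), and Mertk, at -0.91 (SE 0.20, adjusted p = 0.000742). Fcgr2b and Mertk were lower in each of the 6 fits that left out a mouse. Without TG− mouse 43-50, Adgre1 and Aif1 were lower as well, which made 4, and without TG− mouse 43-26, Lyz2 and Tlr2 joined the higher ones, which made 4. Lyz2 took the place of Cd163 without TG+ mouse 43-49, Mrc1 that of Itgax without TG+ mouse 43-29, and Itgax alone was higher without TG+ mouse 43-75.

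The reference itself held genes that moved apart. Ptpn6, the gene of the phosphatase SHP-1 and the member of the reference with the highest TG− CPM, was at 22.9 to 24.7 CPM in TG+ and 23.6 to 24.4 CPM in TG− (log2 difference -0.01, adjusted p = 0.926), and Cytip, named after its values were seen, differed by 0.29 (adjusted p = 0.0108). Ptprc differed by 0.92 (SE 0.16, adjusted p = 0.00615). The largest rises among the reference genes were those of Rac2 (1.15), Dock2 (1.11) and Cd53 (1.08), which are expressed across blood cells. Without Ptpn6 and Cytip, a choice made after seeing the data, the median difference of the members from the leukocyte level was -0.12, 1 member (Cd163) was higher and 5 (Adgre1, Aif1, Fcgr2b, Irf8 and Mertk) were lower. With Ptprc alone as the reference the median was -0.16, 0 members were higher by edgeR (also 0 at an unadjusted p below 0.05) and Fcgr2b and Mertk were lower. The sign of the median thus depended on the reference, and the calls of Fcgr2b and Mertk were made with each of them.

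**Figure D3:**
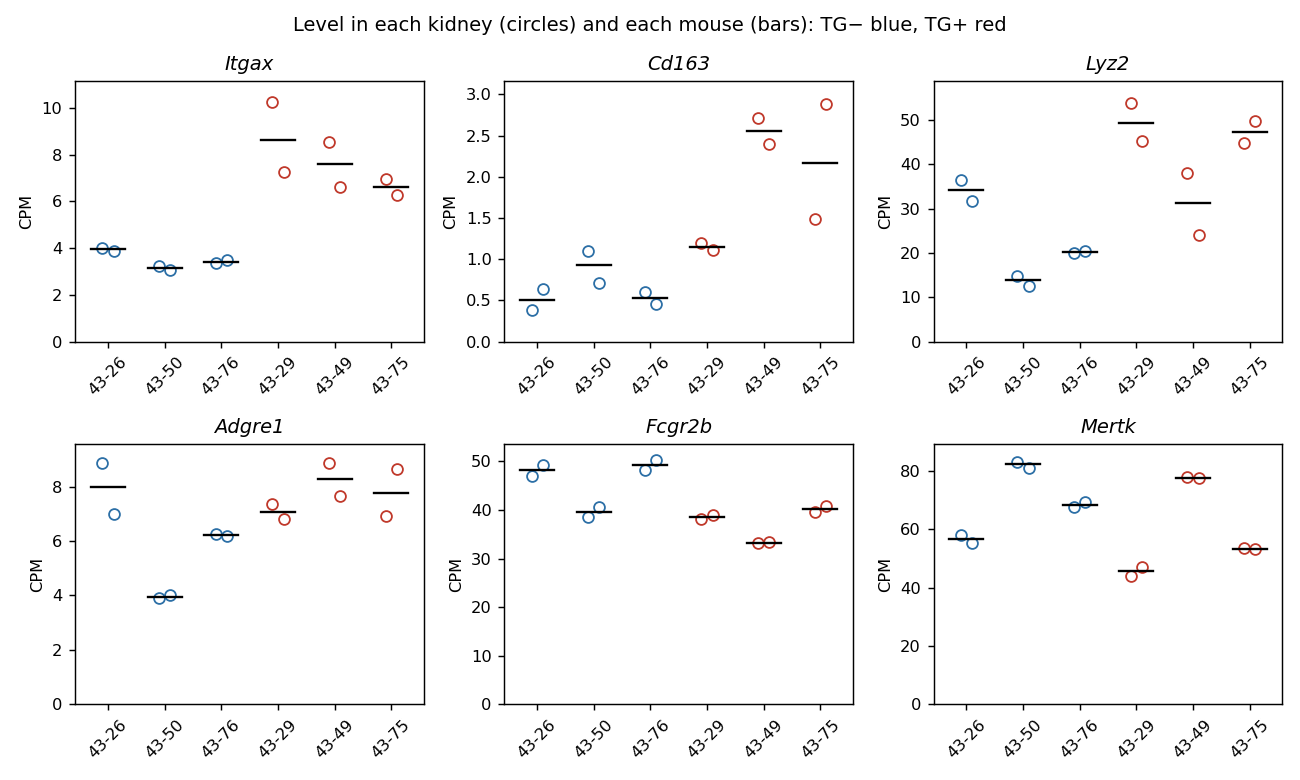
CPM of Itgax, Cd163, Lyz2, Adgre1, Fcgr2b and Mertk in each of the 12 libraries (circles, 2 kidneys per mouse) and in each mouse (bars), with TG− in blue and TG+ in red. Itgax and Cd163 separate the groups in each library, Lyz2 and Adgre1 are high in TG− mouse 43-26, and Fcgr2b and Mertk are not higher in TG+.

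The members' median of 0.77 stood beside 0.92 for the 16 pan-leukocyte genes, of which 15 were higher in TG+ at an adjusted p below 0.05. Another 24 macrophage and monocyte genes, 21 of them tested, had a median log2 fold change of 0.72, and 13 were higher. In that list F13a1, the gene of coagulation factor XIII A of monocytes and resident macrophages, was higher by 1.92 (SE 0.32, adjusted p = 0.00476), and Ly6c2, a marker of inflammatory monocytes, by 1.26 (SE 0.25, adjusted p = 0.00908), at 0.378 to 0.465 CPM in TG+ and 0.158 to 0.184 CPM in TG−. Ly6c2 had only 9 to 23 reads per mouse, its libraries overlapped between the groups and DESeq2 did not call it (adjusted p = 0.0619). It has near-identical copies with which it may share reads.

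The 10 other dendritic cell genes had a median of 1.03, and 7 were higher. Clec10a, a lectin of type 2 dendritic cells, Ccr7, the receptor that guides dendritic cells and T cells to lymph nodes, and Cd209a, a DC-SIGN relative, were higher by 1.98, 1.88 and 1.78 on the log2 scale (adjusted p = 0.00061, 0.00118 and 0.00032). All 3 were also above the leukocyte level, on the log2 scale by 1.11 to 1.304. They were named for their large fold changes in the same counts, so this is no separate support. Over the whole list, 4 of the 10 genes were above that level and 1 was below it at an adjusted p below 0.05. The shares of all tested genes were 4.09% and 71.2%. Zbtb46, a transcription factor of dendritic cells and endothelium with the highest TG− CPM of the list, differed by 0.44 (adjusted p = 0.037).

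The B and plasma cell list held the largest fold changes of the comparison lists. The median log2 fold change was 0.93 over 17 tested T and NK cell genes, with 8 higher, and 1.28 over 14 tested B and plasma cell genes, with 9 higher. Jchain, which joins secreted antibodies, rose by 2.54 (SE 0.25, adjusted p = 0.000427), Igkc, the κ light chain constant region, by 2.27 (SE 0.19, adjusted p = 0.000238) and the B cell receptor gene Cd79a by 2.25 (SE 0.27, adjusted p = 0.00107). Among T and NK cell genes Cd6, Il2rb and Cd4 rose by 1.36, 1.35 and 1.19, while Cd247, the ζ chain of the T cell receptor with the highest TG− CPM of the list, differed by 0.06 (adjusted p = 0.69). Only 5 of 12 neutrophil genes were tested, with a median of 0.60. Of those 5, edgeR and DESeq2 called 0, and 0 had an unadjusted p below 0.05, and Csf3r, the list's gene with the highest TG− CPM, was at 0.788 to 2.30 CPM in all mice. No test compared one list's median with another's.

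Of 28 signalling partners of the members, 26 were tested, 12 were higher, and the median was 0.51. Besides Cd28, the largest rises past the threshold of the study were those of the kinase genes Btk (1.29, SE 0.23, adjusted p = 0.00641) and Syk (1.00, SE 0.14, adjusted p = 0.00232), which act downstream of the B cell receptor and of ITAM receptors. Gas6, the TAM receptor ligand and the gene of this list with the highest TG− CPM, was at 417 to 450 CPM in TG+ and 426 to 492 CPM in TG− (log2 difference -0.04, adjusted p = 0.744).

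**Figure D4:**
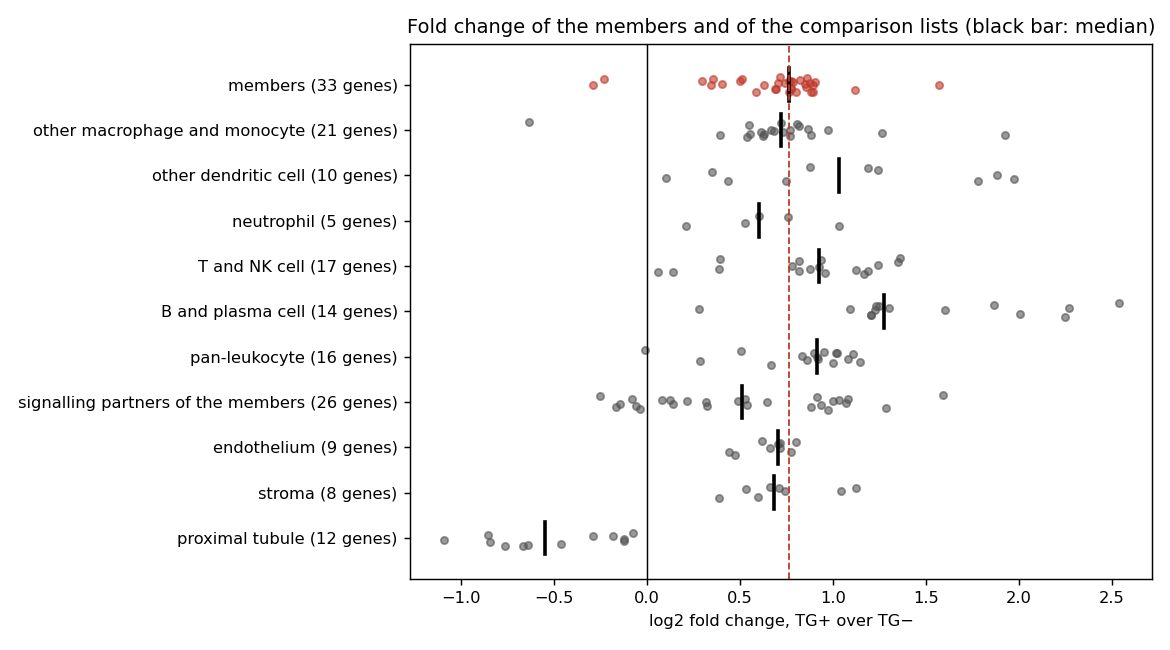
Log2 fold change of TG+ over TG− for each tested gene of the members (red) and of 10 comparison lists (grey), with a black bar at each list's median and a dashed line at the members' median. The medians run from -0.55 for proximal tubule to 1.28 for B and plasma cell genes, and the members' 0.77 lies between those of endothelium (0.70) and pan-leukocyte genes (0.92).

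Endothelial and stromal genes moved with the members, and proximal tubule genes moved the other way. All 9 endothelial genes were higher in TG+, with a median of 0.70 and a summed level of 732.7 to 793.1 CPM in TG+ and 425.0 to 552.8 CPM in TG−. Of these, Eng, the endothelial TGF-β coreceptor with the highest TG− CPM, differed by 0.44 (adjusted p = 0.013). Of 8 stromal genes 5 were higher, with a median of 0.69 and a summed level of 248.6 to 334.4 CPM in TG+ and 164.5 to 196.5 CPM in TG−, and Pdgfrb, the pericyte receptor with the highest TG− CPM there, differed by 0.74 (adjusted p = 0.0139). Of 12 proximal tubule genes 7 were lower, with a median of -0.55. Kap, the androgen-regulated kidney protein with the highest TG− CPM, differed by -0.08 (adjusted p = 0.528) and the organic anion transporter gene Slc22a6 by -1.09 (SE 0.07, adjusted p = 4.82e-05). No defining marker of endothelium, stroma or proximal tubule was at 0, and the part of tissue composition in the members' differences was not tested.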

How the data were processed

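Per the study's methods, the authors obtained single-end reads of 51 bp and analysed them mainly with the Tuxedo tools, against mouse build mm9 per the submitters' processing notes. The annotation, the counting program and the handling of strand are not given in the sources used here. Read counts per gene, without normalization, were taken as deposited for 12 libraries. The deposited RPKM and log2 RPKM columns, and the columns of the authors' own comparison (fold changes, p-values and q-values), were not used. Symbols, positions and exon lengths came from GENCODE M21 on GRCm38, in which 32642 of the 37681 Ensembl identifiers were found, and promoters from RefSeq.

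The 2 kidneys of each mouse were summed. Genes passing edgeR's filterByExpr were normalized by TMM and tested by quasi-likelihood in R 4.3.3 (limma 3.58.1, edgeR 4.0.16), first by genotype and then with the summed pan-leukocyte counts as library size. The procedure was tested on simulated counts with the same dispersion for all genes and no pair effect. It therefore does not speak to genes with a larger spread or to the pairing. The members and lists were chosen with earlier results of these data known. The text names all members, the gene of each list with the highest TG− CPM, up to 3 list genes past the study's threshold with the largest fold change, and the copies Lyz1 and Fcgr4. One gene that this rule names is not reported here. Alternatives were DESeq2 1.42.0, library size alone, no filter, single kidneys as libraries, a block for pairs, leaving out each mouse, and other leukocyte references. Figures used Python 3.11.15 and matplotlib 3.10.9.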

Additional observations from a re-analysis of the deposited data

How the results depend on the processing

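The members' median log2 fold change stayed between 0.63 and 0.89 when each mouse was left out, and between 0.75 and 0.88 under the other settings. Library size alone moved the median gene from 0.01 to 0.13 and that of the members to 0.88. Of 363 refitted values of single members, 0 changed sign, 30 lost the call at an adjusted p of 0.05 and 17 gained it. At the threshold of the study, 2 members passed with DESeq2, without the filter, with each kidney as its own library and with the replicate block (Cd163 and Itgax each time), and 4 passed with library size alone (Cd68, Cd86, Itgax and Mrc1). Leaving out single mice gave 1 to 3 there and 15 to 24 at an adjusted p of 0.05. Against the leukocyte level, leaving out single mice gave 0 to 4 higher and 2 to 4 lower members. The geometric mean of the 16 genes gave 1 higher and 5 lower, with a median of -0.05. Leaving Ptpn6 and Cytip out of the sum, chosen after seeing the data, also gave 1 and 5, with a median of -0.12. Ptprc alone gave 0 higher and a median of -0.16. The cause of these shifts was not tested.

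The replicate block used the littermate pairs that the file names alone hint at. Correlations of the deviations within pairs were 0.337, 0.296 and -0.0236, and those across pairs ran from -0.347 to 0.0358. The first 2 pairs lay above every value across pairs and the third did not. The numbers were therefore not taken to pair all the mice. With the replicate block, 25 members were higher at an adjusted p of 0.05, among them Lyz2 (0.97, adjusted p = 0.00419) and Fcgr1 (0.71, adjusted p = 0.0233), Fcgr2b (-0.29, adjusted p = 0.00819) and Mertk (-0.25, adjusted p = 0.0366) were lower, and 3 were higher and 2 lower than the leukocyte level. Clec4n, Msr1 and Trem2 had 10 to 65 reads per mouse, which limits the precision of their values.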
